A study of Homo sapiens with 10 samples.

Results

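The protein 4.1 family was followed by RNA-seq through 4 lines of PC3, a human prostate cancer cell line. The members were every gene entry and isoform row that the deposited tables list under EPB41, EPB41L1, EPB41L2, EPB41L3, EPB41L4A, EPB41L4B or EPB41L5, which gave 7 of 23170 gene entries and 21 of 37557 isoform rows. PC3-Epi, with 2 samples, is a luciferase-expressing subpopulation picked for its epithelial shape and brightness and is called the epithelial line below. PC3-EMT14, with 3 samples, was isolated from PC3-Epi after co-culture with human macrophages made from IL4-treated monocytes and is called the mesenchymal line. PC3-EMT14-OVOL1 has 3 samples and consists of PC3-EMT14 transduced with a lentivirus for the zinc finger transcription factor OVOL1 and then selected. PC3-EMT14-OVOL2, which is PC3-EMT14 transduced with a lentivirus for the related factor OVOL2 and then selected, has 2 samples. Per the study's methods the constructs differed. OVOL2 was cloned into a vector that adds an epitope tag, and the OVOL1 construct was purchased. Differences between the OVOL lines cannot be told apart from differences of construct. All 4 lines descend from PC3-Epi. The sources used here do not say whether the sequenced PC3-EMT14 cells carried an empty vector.

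Proteins of the 4.1 family carry a FERM domain, which binds the cytoplasmic tails of membrane proteins. In the classical members (EPB41 or 4.1R, EPB41L1 or 4.1N, EPB41L2 or 4.1G, and EPB41L3 or 4.1B) a separate domain also binds spectrin and actin, so that these proteins tie receptors and adhesion molecules to the membrane skeleton. EPB41L3, also called DAL-1, is known as a gene that is often silenced in carcinomas. EPB41L5 is known as a binding partner of Crumbs proteins at the epithelial membrane and as a protein that cells of the mouse embryo need for the epithelial to mesenchymal transition (EMT). The family is also known for extensive alternative splicing.

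The authors' tables hold 1 FPKM value (fragments scaled by transcript length and by library depth) for each line and comparison, pooled over that line's samples. There is therefore no replicate check, no standard deviation and no test for any value given here, and the depth of each sample is unknown. Every difference is a comparison of 2 pooled values. The family was chosen by a proposal that knew the FPKM values of EPB41L3 and the isoform values of EPB41L5 in these tables, so all its values are a description and support nothing beyond themselves. A gene was counted as past 2-fold when its 2 FPKM values in a table differed at least 2-fold and the higher was at least 1 FPKM. In bulk RNA, fewer cells with a transcript and less transcript per cell cannot be told apart.

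The transduced genes matched their labels, with OVOL1 at 0.0238 FPKM in the mesenchymal line and 11.3 FPKM in the OVOL1 line, and OVOL2 at 0.370 FPKM in the mesenchymal line and 831 FPKM in the OVOL2 line. EPCAM, KRT8 and KRT18, markers of epithelial carcinoma cells, were above 1 FPKM in all 4 lines, and CDH1 lay between 0.971 and 1.002 FPKM in the mesenchymal line and above 1 FPKM in the other lines. The prostate luminal marker KLK3 was listed at 0 in every line. Of 10 macrophage markers, 0 reached 1 FPKM in any line, and their summed level was between 0.350 and 0.479 FPKM. ZEB1, a transcription factor that drives EMT, was at 7.43, 4.25, 1.77 and 0.130 FPKM in the mesenchymal line, the OVOL1 line, the OVOL2 line and the epithelial line. The mesenchymal marker VIM was at 265, 183, 76.9 and 42.5 FPKM in that order. FN1, also a mesenchymal marker, was at 36.0, 18.4, 16.5 and 33.8 FPKM. It was thus lower in the OVOL lines but near the mesenchymal level in the epithelial line.

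EPB41L3 was the member that separated the lines. It stood at 25.2 FPKM in the mesenchymal line and 7.65 FPKM in the OVOL1 line, which is 3.30-fold lower (log2 ratio -1.72). It stood at 24.97 FPKM in the mesenchymal line and 7.27 FPKM in the OVOL2 line, 3.44-fold lower (log2 ratio -1.78). In the table of the epithelial line it was at 25.8 FPKM in the mesenchymal line and 0.0395 FPKM in the epithelial line, 652-fold lower (log2 ratio -9.35). The mesenchymal line was thus highest, both OVOL lines kept about the same intermediate level, and the epithelial line had next to none. The size of the last ratio rests on a value near 0, and with 1 FPKM added to both values the log2 ratio of EPB41L3 was -4.69.

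The OVOL lines were close to each other in EPB41L3. In the direct table, EPB41L3 was at 7.26 FPKM with OVOL2 and 7.57 FPKM with OVOL1, a ratio of 1.04. ZEB1 in the same table was at 1.77 FPKM with OVOL2 and 4.21 FPKM with OVOL1, and a relation between the genes was not tested. Neither OVOL line came near the 0.0395 FPKM of the epithelial line.

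**Figure D1:**
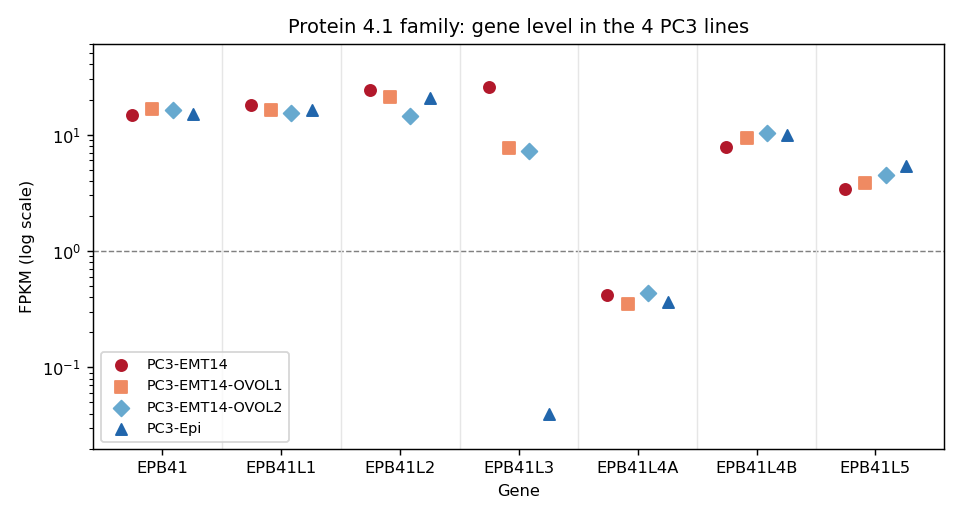
Gene level in FPKM (log axis) of the 7 family members, with 1 point for each of the 4 lines and the dashed line at 1 FPKM. EPB41L3 runs from 25.8 FPKM in the mesenchymal line to 0.0395 FPKM in the epithelial line, while the 4 points of each other member lie within 2-fold of each other.

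Among all genes, the ratio of EPB41L3 was at the edge of the distribution. Ranked from the lowest ratio among those at 1 FPKM or more with values above 0 in both lines, EPB41L3 was number 31 of 12047 with OVOL1, 85 of 12163 with OVOL2, and 4 of 12292 in the epithelial line. Of the 7 members, 6 reached 1 FPKM in each comparison (all but EPB41L4A), and EPB41L3 was the 1 of these 6 past 2-fold against the mesenchymal line, lower in all 3 comparisons. The background of genes past 2-fold lower was 1.55% of all genes at the floor with OVOL1, 2.92% with OVOL2 and 8.33% in the epithelial line. No member was past 2-fold higher, where 2.42%, 4.41% and 7.35% of genes were. Between the OVOL lines, 0 of the 6 members were past 2-fold, against 1.91% of genes higher and 1.17% lower with OVOL2. Since the 3 comparisons share the mesenchymal line samples, the repeated count does not come from independent data.

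**Figure D2:**
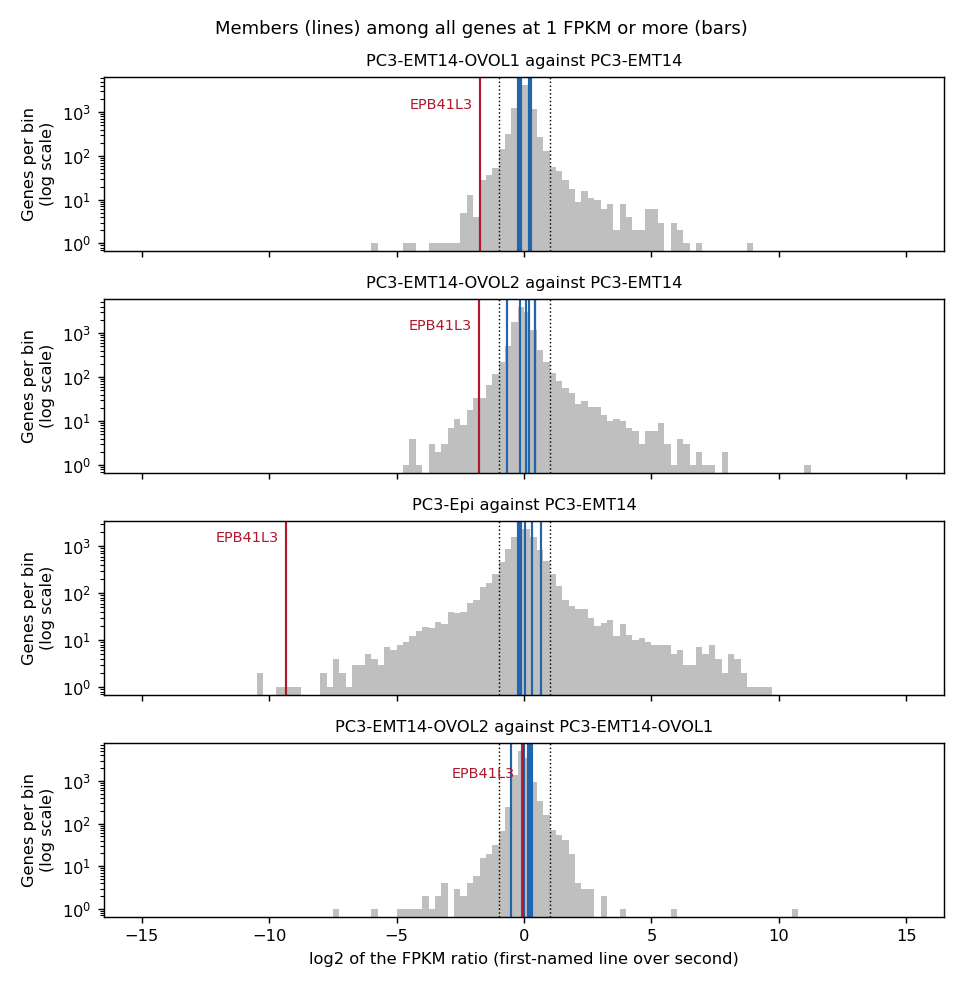
Histograms of the log2 FPKM ratio of all genes at 1 FPKM or more (grey, log axis of genes per bin) for the 4 comparisons, with EPB41L3 as a red line, the other members as blue lines and dotted lines at 2-fold. EPB41L3 lies at -1.72, -1.78, -9.35 and -0.06, and no blue line crosses a dotted line.

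The other 3 classical members, which bind spectrin and actin, stayed close to their level in the mesenchymal line. EPB41, the founding member from the red cell membrane, was at 14.6 FPKM in the mesenchymal line, 16.7 FPKM with OVOL1, 16.3 FPKM with OVOL2 and 15.1 FPKM in the epithelial line. EPB41L1, best known from neurons, was at 17.9, 16.3, 15.4 and 16.3 FPKM in the same order. EPB41L2, the broadly expressed form, was at 24.3, 21.0, 14.6 and 20.7 FPKM. The OVOL2 line had the lowest EPB41L2 level of the 4 lines. In the table of OVOL2 against the mesenchymal line, EPB41L2 was at 14.6 against 23.5 FPKM, 1.61-fold lower, and in the direct table it was 1.43-fold below the OVOL1 line. These were the largest member difference short of 2-fold with OVOL2 and the largest of all in the direct table.

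Of the 3 members outside the classical group, EPB41L5 and EPB41L4B were lowest in the mesenchymal line. EPB41L5 was at 3.39 FPKM in the mesenchymal line, 3.83 FPKM with OVOL1, 4.48 FPKM with OVOL2 and 5.33 FPKM in the epithelial line, a range of 1.57-fold. Its lowest and highest lines were the reverse of those of EPB41L3, for which the OVOL lines were too close to be ordered. EPB41L4B, also called EHM2, was at 7.88, 9.37, 10.4 and 9.90 FPKM in the same order of lines. EPB41L4A, also called NBL4, was between 0.351 and 0.432 FPKM in all 4 lines and so below the 1 FPKM floor. Its values over the lines had a range of 1.24-fold, so no large difference was seen, and a small one cannot be read at these levels.

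The values of the mesenchymal line differed between its 3 tables by a factor of 1.032 for each member, and those of the OVOL1 line between 2 tables by 1.011, which are also the median factors over all genes. These factors show how each table was scaled and not the spread between samples. The levels set side by side above come from separate tables, and several orders, such as EPB41 in the OVOL lines (16.7 against 16.3 FPKM) and EPB41L1 in the OVOL1 line and the epithelial line (16.26 against 16.32 FPKM), are too close to be read as an order.

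The summed level of the 7 members was 94.3 FPKM in the mesenchymal line, 75.2 FPKM with OVOL1, 68.8 FPKM with OVOL2 and 67.7 FPKM in the epithelial line. EPB41L3 made up 27.3% of that sum in the mesenchymal line, where it was the highest member. It made up 10.2% with OVOL1, 10.6% with OVOL2 and 0.0583% in the epithelial line, where it was the lowest. Without EPB41L3 the sums were 68.5, 67.5, 61.6 and 67.7 FPKM, so the mesenchymal and epithelial lines differed little in the rest of the family. EPB41L2 led the family in the OVOL1 line and the epithelial line, and EPB41 led it in the OVOL2 line.

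The start of EPB41L3 is shown because its level differed most. The deposited entry lies on hg19 at chr18:5392388-5543986 and has 1 isoform row (TCONS_00015846), whose level is the gene level. RefSeq lists 4 start windows for EPB41L3, and by exact match to GRCh37 the start nearest the deposited entry's end lies 10 bases from it. The annotated gene of GENCODE v44 extends further, to 5630699, so the deposited entry leaves out the upstream start. The 250 bases before the matched start are given 5′ to 3′ on the minus strand (GRCh38.p14, chr18:5543998-5544247), with each CpG in capitals.
EPB41L3: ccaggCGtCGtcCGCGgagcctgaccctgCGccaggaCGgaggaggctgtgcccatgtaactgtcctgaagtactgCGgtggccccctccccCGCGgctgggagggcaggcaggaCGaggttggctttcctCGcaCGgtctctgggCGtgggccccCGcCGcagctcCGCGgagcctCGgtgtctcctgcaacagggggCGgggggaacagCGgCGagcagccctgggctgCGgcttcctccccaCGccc
This stretch holds 23 CpG dinucleotides, against a median of 11 over 35116 RefSeq windows of the same length, and 25.8% of them hold at least as many. The E-box CAGGTG, a binding motif of ZEB factors searched on both strands, was not in it and was in 17.5% of windows. The OVO core CCGTTA, searched in the same way, was also not in it and was in 2.45% of windows, and the longer OVOL2 consensus motif that the study used was in 0.877% of windows and not in this one. Windows were found for 6 of the 7 members, all but EPB41L4B, and of those nearest to the deposited starts 1 (EPB41) held the E-box and 0 held either OVO motif. The EPB41L1 window lies 19716 bases from its deposited start, so it is not the start of that entry. Only the 250 bases before a start were searched, so motifs elsewhere would be missed. A match to such letters is no evidence of binding, and DNA methylation was not measured.

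The genes with the pattern most like EPB41L3 were named by the distance between their 3 log2 ratios against the mesenchymal line, over 12452 other genes. They were ZFPM2 (distance 1.46), PDE3A (1.68) and TMEM200C (1.95). ZFPM2, a cofactor of GATA factors, was at 1.78 FPKM in the mesenchymal line, 1.29 FPKM with OVOL1, 0.732 FPKM with OVOL2 and 0.00366 FPKM in the epithelial line. PDE3A, a cyclic nucleotide phosphodiesterase, was at 5.24, 3.36, 2.52 and 0.00404 FPKM in that order. TMEM200C, a transmembrane protein, was at 2.12, 0.920, 0.677 and 0.0118 FPKM. These genes share the near absence in the epithelial line, which dominates a distance over 3 values, and none had as large a difference with OVOL1 as EPB41L3.

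TMEM200C is also a neighbour of EPB41L3, 346 kb away on chromosome 18. The surrounding entries were therefore examined after these values were seen. Within 2 Mb on either side the tables list 15 entries, of which 8 reached the floor in the table of the epithelial line. Of the 8, 3 were past 2-fold lower in the epithelial line and 0 higher, where 8.33% of all genes at the floor were lower and 7.35% higher. The median log2 ratio of the 8 was -0.61, against -0.01 over all genes. TMEM200C, which prompted this look, is 1 of the 3, so the count and the median are no test against these shares. The other 2 were LOC339290, at 7.67 FPKM in the mesenchymal line and 2.61 FPKM in the epithelial line, and C18orf18, at 1.09 and 0.532 FPKM. TMEM200C and C18orf18 reached the floor in that table only through the mesenchymal line, where they are higher. ZFP161, the nearest entry, was at 4.08 FPKM in the mesenchymal line and 4.26 FPKM in the epithelial line. L3MBTL4, beyond TMEM200C, was at 1.31 and 1.01 FPKM. The entries past 2-fold lower thus lay among entries that differed less.

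**Figure D3:**
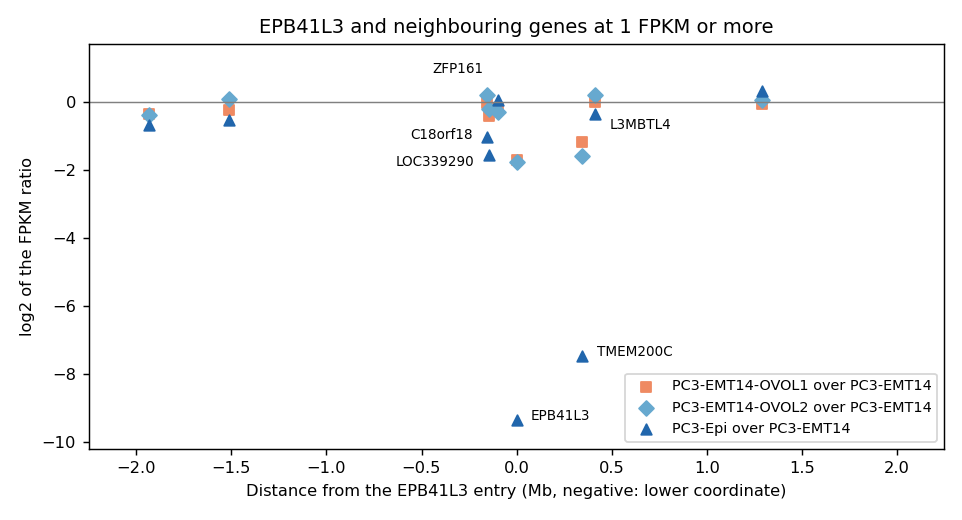
log2 FPKM ratio against the mesenchymal line (vertical axis) of EPB41L3 and the 8 neighbouring entries at 1 FPKM or more in the table of the epithelial line, by distance from the EPB41L3 entry in Mb, with squares for OVOL1, diamonds for OVOL2 and triangles for the epithelial line. EPB41L3 and TMEM200C stand far below the rest in the epithelial line, while ZFP161 lies near 0.

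Isoform use was compared as the share of each isoform row in the summed isoform FPKM of its gene. EPB41L3 and EPB41L4A have 1 row each, and the other 5 members hold 19 rows that could be compared. The tables name isoforms by identifiers that they do not tie to annotated transcripts or exons, so the protein products are not named here.

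EPB41L5 had another leading isoform in the mesenchymal line than in the other 3 lines. In the mesenchymal line, TCONS_00019105 led with 53.0% of the EPB41L5 signal and TCONS_00019103 followed with 45.2%. TCONS_00019103 held 77.5% in the OVOL1 line, 81.8% in the OVOL2 line and 92.4% in the epithelial line. TCONS_00019105 held 21.9%, 13.9% and 7.55% in those lines. The shares of both OVOL lines thus lay between the mesenchymal and the epithelial line, on the epithelial side.

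The levels of the 2 isoforms differed in opposite directions. TCONS_00019103 was at 1.5002 FPKM in the mesenchymal line and 2.97 FPKM with OVOL1, at 1.49 and 3.66 FPKM with OVOL2, and at 1.53 and 4.92 FPKM in the epithelial line, or 1.98, 2.47 and 3.21-fold higher. TCONS_00019105 was at 1.76 and 0.840 FPKM with OVOL1, at 1.74 and 0.623 FPKM with OVOL2, and at 1.80 and 0.402 FPKM in the epithelial line, or 2.10, 2.79 and 4.47-fold lower. The gene level of EPB41L5 did not show this exchange, since it was 1.15-fold higher with OVOL1, 1.36-fold higher with OVOL2 and 1.57-fold higher in the epithelial line. The other EPB41L5 rows, TCONS_00019104 and TCONS_00019106, were at 0.160 FPKM or less in every line.

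**Figure D4:**
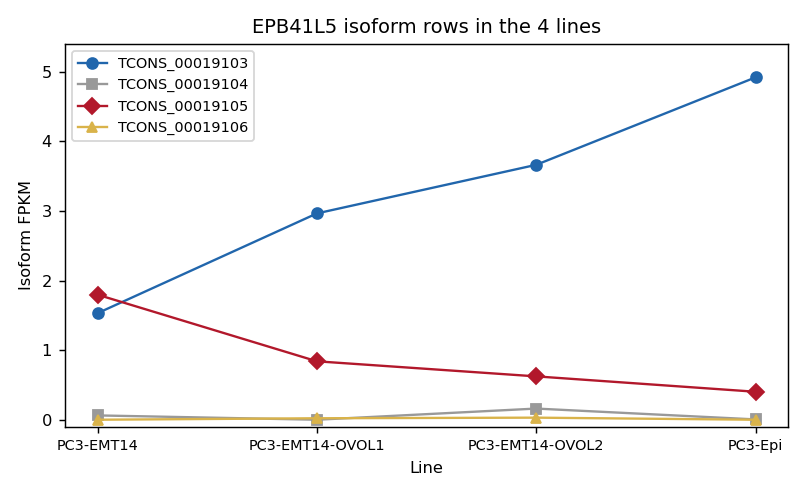
FPKM of the 4 EPB41L5 isoform rows in the 4 lines, with lines joining the points of 1 isoform. TCONS_00019103 goes from 1.53 FPKM in the mesenchymal line to 4.92 FPKM in the epithelial line, TCONS_00019105 from 1.80 to 0.402 FPKM, and they cross between the mesenchymal line and the OVOL lines.

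Share changes of at least 10 percentage points were found in 2 of the 19 rows in each comparison with the mesenchymal line, both of EPB41L5. Over all comparable isoforms such changes took 6.55% with OVOL1, 10.6% with OVOL2 and 12.2% in the epithelial line, so the count of 2 rows was near the background. The share of TCONS_00019103 was higher by 32.3, 36.6 and 47.2 percentage points. Changes at least that large in either direction were seen in 63 of 13751, 68 of 13795 and 78 of 13498 comparable isoforms, itself included. A leading isoform that differed between lines was found in 1 of 5 members, against 5.01%, 6.34% and 7.3% of genes with several isoforms. Between the OVOL lines 0 of 19 rows passed, against 8.25% of isoforms, and 0 of 5 members had another leading isoform, against 5.39% of genes. The EPB41L5 shares there differed by 4.33 points for TCONS_00019103 and -8.03 points for TCONS_00019105, the latter being the largest change short of 10 points.

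The splicing regulators ESRP1 and ESRP2, which promote epithelial exon choices, were also higher in the 3 lines with these shares. ESRP1 was at 0.406 FPKM in the mesenchymal line and 15.2 FPKM with OVOL1, and at 0.415 FPKM in the mesenchymal line and 84.6 FPKM in the epithelial line. With OVOL2 it was listed at 11.7 FPKM, in a row that Cuffdiff marked as failed. ESRP2 was at 5.58 FPKM in the mesenchymal line, 9.31 FPKM with OVOL1, 10.5 FPKM with OVOL2 and 16.9 FPKM in the epithelial line. Their part in the EPB41L5 exchange was not tested.

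The remaining members kept their leading isoform in all 4 lines. EPB41 has 6 rows, led by TCONS_00000387 with 59.9% in the mesenchymal line, 62.0% with OVOL1, 58.4% with OVOL2 and 54.8% in the epithelial line. Its row TCONS_00000390 was listed at 0 in the mesenchymal line and at 0.476, 0.972 and 0.869 FPKM in the OVOL1 line, the OVOL2 line and the epithelial line. Its row TCONS_00000386 held 8.05% in the mesenchymal line, 7.95% with OVOL1, 6.99% with OVOL2 and 1.58% in the epithelial line. These EPB41 changes stayed under 10 points. TCONS_00000390 was not marked as failed in these comparisons, but a listed 0 is an estimate from pooled samples and need not mean absence.

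EPB41L2 was led by TCONS_00029402 with 89.6% in the mesenchymal line, and its second row TCONS_00029400 held 10.3% there, 12.7% with OVOL1, 17.2% with OVOL2 and 17.3% in the epithelial line. In the OVOL2 line the lower EPB41L2 level lay in the leading row, which was at 21.1 FPKM in the mesenchymal line and 12.1 FPKM with OVOL2, while TCONS_00029400 was at 2.42 and 2.51 FPKM. EPB41L1 divided its signal between TCONS_00020941, with 74.6% to 79.8% over the 4 lines, and TCONS_00020942. EPB41L4B came from 1 row, TCONS_00035616, for 98.7% to 99.6% of its signal.

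**Figure D5:**
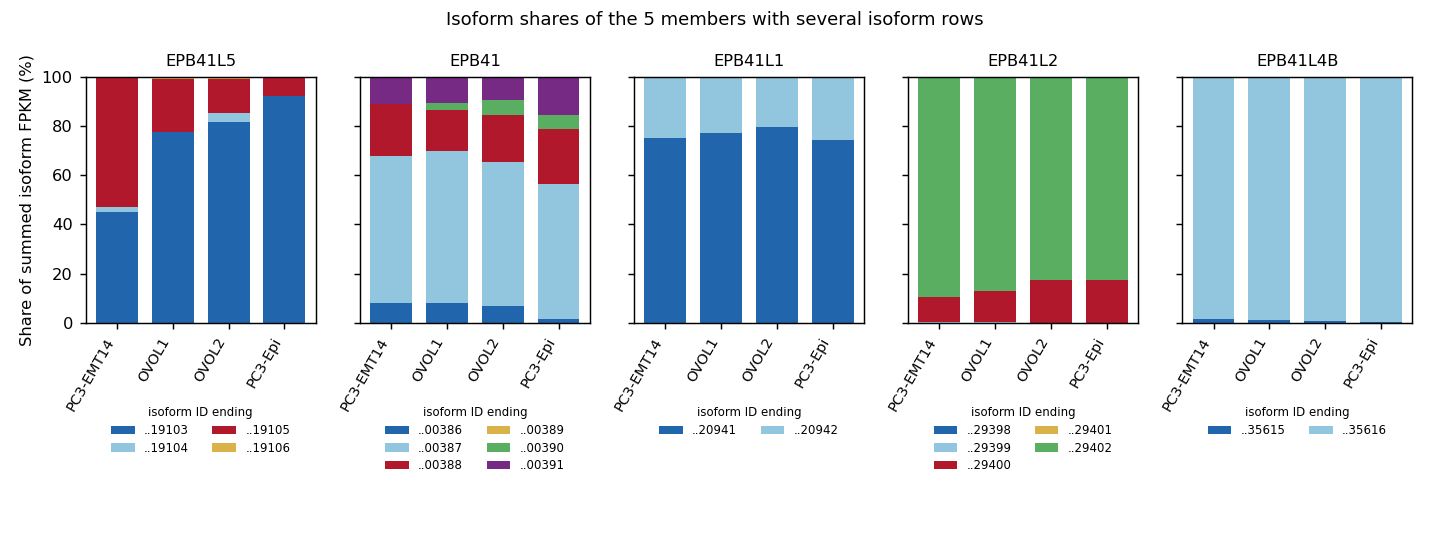
Stacked shares (percent of summed isoform FPKM) of the isoform rows of 5 members in the mesenchymal line, PC3-EMT14-OVOL1 (OVOL1), PC3-EMT14-OVOL2 (OVOL2) and the epithelial line, coloured by the last digits of the isoform identifier. The EPB41L5 bars change from 45.2% to 92.4% for the lowest segment, while the bars of the other 4 genes keep their main segment.

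Genes whose proteins work with the family were counted in 4 lists, chosen with earlier results of these data known. Their counts are therefore a description and no test against the background. Of all genes at the floor, 2.42% with OVOL1, 4.41% with OVOL2 and 7.35% in the epithelial line were past 2-fold higher. In the same order, 1.55%, 2.92% and 8.33% were past 2-fold lower. In the spectrin and actin skeleton, 11 of 21 entries reached the floor, and 1 was past 2-fold with each OVOL and 0 in the epithelial line. That entry was TMOD1, which caps the slow-growing end of actin filaments, at 0.535 FPKM in the mesenchymal line and 1.40 FPKM with OVOL1, at 0.529 and 1.75 FPKM with OVOL2, and at 0.546 and 0.606 FPKM in the epithelial line. TMOD1 reached the floor only through the OVOL lines, where it was higher. It was below the floor in the comparison with the epithelial line, so the count of 0 there does not cover it. SPTB, the red cell beta spectrin, reached the floor only in that comparison. It was at 0.558 FPKM in the mesenchymal line and 1.11 FPKM in the epithelial line, just short of 2-fold. EPB49, or dematin, was at 4.09 FPKM in the mesenchymal line and 6.40 FPKM in the epithelial line. The median log2 ratio of the list was -0.19, 0.09 and -0.28 with OVOL1, with OVOL2 and in the epithelial line, against 0.00, -0.04 and -0.01 over all genes.

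Among 15 adhesion and signalling partners, 11 reached the floor. CNTNAP1, a neuronal adhesion protein whose tail binds EPB41L3, was at 6.10 FPKM in the mesenchymal line and 1.598 FPKM in the epithelial line (log2 ratio -1.93), and was the 1 entry past 2-fold. With the OVOLs it was at 5.07 and 5.52 FPKM, so it did not share the intermediate level of EPB41L3. CADM4, an immunoglobulin adhesion molecule, was at 3.54 FPKM in the mesenchymal line, 4.34 FPKM with OVOL1, 5.08 FPKM with OVOL2 and 6.09 FPKM in the epithelial line. CADM1, an adhesion molecule known to bind EPB41L3, was at 0.174 FPKM or less in all lines. The list medians were 0.01, 0.05 and 0.10.

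Crumbs and junction partners of EPB41L5 included the largest differences. In each comparison with the mesenchymal line, 3 of 12 entries at the floor were past 2-fold higher. Of all genes, 2.42% with OVOL1, 4.41% with OVOL2 and 7.35% in the epithelial line were. In each comparison CRB3 reached the floor only through the line where it was higher, as did CDH1 with each OVOL. The count thus depends in part on the floor and is no test. CRB3, the epithelial Crumbs protein, was at 0.531 FPKM in the mesenchymal line and 16.04 FPKM with OVOL1, at 0.525 and 41.5 FPKM with OVOL2, and at 0.543 and 49.1 FPKM in the epithelial line. CDH1, or E-cadherin, was at 16.2, 39.3 and 50.6 FPKM in the same 3 lines. INADL, a scaffold of the Crumbs complex, was at 3.98, 6.08 and 6.92 FPKM against 1.91, 1.89 and 1.95 FPKM in the mesenchymal line. CDH1 and CRB3 were also past 2-fold higher with OVOL2 than with OVOL1. MPP5, which links Crumbs to INADL, was at 14.6 FPKM in the mesenchymal line and 17.8 FPKM in the epithelial line. The list medians were 0.10, 0.09 and 0.17, so most of these partners stayed near their level in the mesenchymal line.

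The 19 other FERM genes, among them ezrin, radixin, moesin and merlin, all reached the floor against the mesenchymal line. With either OVOL 0 of 19 were past 2-fold. In the epithelial line 2 were higher, MYLIP, an E3 ubiquitin ligase of the LDL receptor, at 2.49 FPKM in the mesenchymal line and 6.18 FPKM in the epithelial line, and FARP1, at 5.59 and 11.5 FPKM. PTPN21, a tyrosine phosphatase, was at 3.95 FPKM in the mesenchymal line and 2.197 FPKM with OVOL2. The list medians were -0.10, -0.19 and 0.17. No FERM gene of this list was past 2-fold lower in any of the 4 comparisons.

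Some member values can hold signal of overlapping genes. The EPB41 entry (chr1:29213603-29450421) is listed with the locus that also holds TMEM200B, at 1.25 FPKM in the mesenchymal line, 1.32 FPKM with OVOL1, 1.44 FPKM with OVOL2 and 2.76 FPKM in the epithelial line, and in GENCODE v44 on GRCh37 TMEM200B lies on the opposite strand. For 6 of the 7 members, all but EPB41L2, that annotation has a gene on the opposite strand that overlaps the member. These overlaps are of whole gene spans, introns included, and whether exons overlap was not checked. The sources used here do not say whether counting used strand, so reads from any shared exons cannot be told apart. The remaining entries lie at chr20:34700348-34820721 (EPB41L1), chr6:131160488-131384462 (EPB41L2), chr5:111498315-111755010 (EPB41L4A), chr9:111934254-112083021 (EPB41L4B) and chr2:120770604-120936697 (EPB41L5) on hg19, each spanning exons and introns of its gene.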

How the data were processed

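RNA-seq of total RNA from 10 samples in 4 groups was used, grouped by the sample labels. Per the study's methods, TopHat was used to align paired-end reads to the hg19 transcriptome of UCSC, and Cuffdiff to compare lines in pairs. The authors deposited FPKM values in 8 tables, 1 of genes and 1 of isoforms per comparison, with 1 value per line pooled over its samples. The tables also hold the authors' own fold changes, test statistics, p-values, q-values and significance calls, which were not used. Rows with status FAIL were left out of counts. No column of per-sample values was present, so depth per sample is unknown and no interval, error or test could be computed.

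From the FPKM values, ratios were taken within a table without a pseudocount. A gene was past 2-fold at a ratio of 2 or more with the higher value at least 1 FPKM. Isoform shares were compared for genes with at least 2 isoform rows and a summed level of at least 1 FPKM in both lines, and a change of 10 percentage points was counted. The same rules over all genes gave the background. Members and lists were chosen with earlier results of these data known. Named genes were the members, from each partner list the 2 with the largest ratio in PC3-Epi and the 1 with the largest ratio with OVOL2, 8 context genes, and the 3 genes most like each member past 2-fold. CADM1, MPP5, INADL and the neighbours of EPB41L3 were named after their values were seen. Python 3.11.15, numpy 2.4.6, pandas 2.3.3 and matplotlib 3.10.9 were used. RefSeq windows (GRCh38.p14) were placed on GRCh37 by exact match. Alternatives changed the fold, the floors, the share threshold, the denominator, the pseudocount and the centring.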

Additional observations from a re-analysis of the deposited data

How the results depend on the processing

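No paired analysis was possible because the deposited values are pooled over the samples of a line, and for the same reason no sample could be left out. The 28 log2 ratios of the members kept their side of 2-fold in all 119 recomputed values, under added pseudocounts, summed isoform FPKM, centring and, between the OVOL lines, the difference of the ratios against PC3-EMT14. Much of this was fixed in advance. The summed isoform FPKM of a member equals its gene FPKM, and the difference of ratios reuses the same pooled values. A pseudocount only shrinks a ratio, so a ratio under 2-fold could not cross. The size of the EPB41L3 log2 ratio in PC3-Epi depended on the pseudocount, at -7.53 with 0.1 FPKM and -4.69 with 1 FPKM added. At a threshold of 1.5-fold, 2 members passed with OVOL2 and 2 in PC3-Epi, and at 4-fold 0 passed with OVOL1 and 0 with OVOL2. At 1.5-fold the partner lists held 18 entries in PC3-Epi, against 6 at 2-fold, and 4 between the OVOL lines, against 2. At a share change of 5 points, 5 member isoforms passed with OVOL2, 7 in PC3-Epi and 1 between the OVOL lines. With a floor of 5 FPKM on the summed isoforms, EPB41L5 was no longer compared, so 0 member isoforms passed and 0 members had another leading isoform in each of the 3 comparisons with PC3-EMT14. The floors for the leading isoform and the alternatives for the number of members with a range of 2-fold over the lines were added after the data were seen. Over all genes, the number past 2-fold in PC3-Epi was 1943, against 3896 at 1.5-fold, 800 at 4-fold, 5775 without a floor and 1120 with a floor of 5 FPKM. In the same order it was 482, 1067, 211, 3380 and 235 with OVOL1, 898, 1842, 334, 3974 and 475 with OVOL2, and 373, 905, 113, 3045 and 208 between the OVOL lines. Centring moved the share of higher genes among them by at most 3 percentage points. Low levels such as EPB41L4A remain below the floor of 1 FPKM, where small differences cannot be read.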
